A study of Mus musculus with 17 samples.

Results

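The reabsorption of phosphate by the kidney rests on a small set of genes, and 10 of them were examined across the 3 groups of this series: the phosphate transporters Slc34a1, Slc34a3, Slc20a1 and Slc20a2, the scaffold genes Pdzk1 and Slc9a3r1, the Klotho gene Kl with its partner receptor Fgfr1, the parathyroid hormone receptor Pth1r and the vitamin D receptor Vdr. They were chosen by symbol, and all 10 were found among the 22558 genes of the table that were used. RNA of whole kidneys was sequenced from male mice that were 8 weeks old at the start and were kept for 6 weeks. The Ctrl group held 5 C57BL/6 mice given saline. The Case group held 6 diabetic mice of the line BKS.Cg-Dock7m +/+ Leprdb/J, called db/db, given saline, and the Dapa group held 6 mice of this line given dapagliflozin, an inhibitor of the glucose transporter encoded by Slc5a2, at 1.0 mg/kg/day. The Ctrl mice were of another strain than both db/db groups, so strain and db/db genotype cannot be told apart in any comparison with Ctrl. The Case and Dapa groups shared strain and genotype and differed by the drug.

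Filtered phosphate is taken up across the brush border of the proximal tubule, mainly by NaPi-IIa (Slc34a1) and NaPi-IIc (Slc34a3), which are held in place by PDZ scaffold proteins. FGF23, a hormone from bone, acts on FGF receptors that carry Klotho as co-receptor, and parathyroid hormone acts on its own receptor, and both withdraw these transporters from the brush border. The same signals set vitamin D metabolism: FGF23 lowers and parathyroid hormone raises CYP27B1, the enzyme that makes active vitamin D, while CYP24A1 degrades it. Active vitamin D acts through the nuclear receptor VDR, which induces CYP24A1 and genes of calcium transport. Klotho is known to be most abundant in the distal tubule.

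By the annotation deposited with the values (mm10), the transporters lay at chr13:55399648-55414695 (Slc34a1), chr2:25228898-25234364 (Slc34a3), chr2:129198764-129211616 (Slc20a1) and chr8:22476700-22569607 (Slc20a2). The scaffold genes lay at chr3:96829284-96870926 (Pdzk1) and chr11:115163341-115181181 (Slc9a3r1). The receptors lay at chr5:150952607-150993817 (Kl), chr8:25513654-25575714 (Fgfr1), chr9:110722085-110747145 (Pth1r) and chr15:97854425-97910630 (Vdr). All 10 were protein-coding genes. At most 0.8% of the 50-base stretches of any member occurred in a transcript of another gene. Exons of Gpr89 on the opposite strand covered 37.5% of the exon bases of Pdzk1, and the strand setting of the counting was not given in the sources used here. The mean FPKM of Gpr89 was 2.60 in Ctrl, 2.68 in Case and 2.80 in Dapa mice, far below that of Pdzk1. Exons of Pfn3 covered 11.7% of those of Slc34a1 in the same way, and Pfn3 had a mean of at most 0.0774 FPKM in any group.

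The 5 members that were lower in Dapa than in Ctrl mice are shown by the sequence before their start, because genes called in the same direction can be searched for shared short motifs. The sequences are those of RefSeq (GRCm38.p6), read in the direction of the gene and ending at the base before the RefSeq start, or, for Vdr, before the nearest annotated exon. The stretches of Pdzk1 and Vdr lie inside the gene spans given above, which reach farther upstream than these RefSeq starts. Capitals mark matches on either strand to GTTAAT, known from sites of HNF1 factors, to AGGTCA, known from sites of nuclear receptors, and to GGGCGG, the GC box. No 2 of the 3 motifs overlapped here. RefSeq gives further starts for Pdzk1 and Pth1r, and the first of each is shown.
Slc34a1, chr13:55399398-55399647, plus strand: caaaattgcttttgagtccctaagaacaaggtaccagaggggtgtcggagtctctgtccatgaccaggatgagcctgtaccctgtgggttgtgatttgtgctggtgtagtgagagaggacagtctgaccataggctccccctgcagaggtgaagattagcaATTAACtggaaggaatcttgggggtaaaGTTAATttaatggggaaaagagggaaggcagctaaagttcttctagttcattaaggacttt
Kl, chr5:150952357-150952606, plus strand: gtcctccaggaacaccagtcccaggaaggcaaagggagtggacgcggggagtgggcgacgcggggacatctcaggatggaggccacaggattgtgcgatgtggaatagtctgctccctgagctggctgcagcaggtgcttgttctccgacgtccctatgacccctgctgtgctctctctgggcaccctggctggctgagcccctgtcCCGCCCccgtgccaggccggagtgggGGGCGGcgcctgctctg
Pdzk1, chr3:96829815-96830064, plus strand: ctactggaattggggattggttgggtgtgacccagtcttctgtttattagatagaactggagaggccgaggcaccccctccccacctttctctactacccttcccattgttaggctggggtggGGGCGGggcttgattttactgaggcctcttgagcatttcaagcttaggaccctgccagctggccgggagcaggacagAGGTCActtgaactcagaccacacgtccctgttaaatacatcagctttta
Pth1r, chr9:110747146-110747395, minus strand: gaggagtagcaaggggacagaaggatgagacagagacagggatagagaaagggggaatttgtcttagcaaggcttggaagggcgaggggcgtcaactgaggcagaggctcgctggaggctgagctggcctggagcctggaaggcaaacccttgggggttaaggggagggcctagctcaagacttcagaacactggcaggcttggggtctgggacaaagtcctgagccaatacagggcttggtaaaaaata
Vdr, chr15:97908311-97908546, minus strand: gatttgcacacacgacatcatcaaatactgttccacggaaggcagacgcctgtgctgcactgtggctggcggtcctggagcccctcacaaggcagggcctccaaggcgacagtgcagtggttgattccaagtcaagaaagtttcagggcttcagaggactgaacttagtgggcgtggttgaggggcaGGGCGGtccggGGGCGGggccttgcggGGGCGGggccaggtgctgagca

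No motif was shared by all 5 windows. The Slc34a1 window held 2 matches to GTTAAT, a motif found in 6.43% of all 32851 RefSeq windows of 250 bases. Pdzk1 held 1 match to AGGTCA, which 14.0% of windows held. GGGCGG stood 3 times in Vdr, 2 times in Kl and 1 time in Pdzk1, and 32.7% of windows held it. The Pth1r window shown held none of them, and those of its 2 further starts held 1 and 2 matches to GGGCGG. A match is a run of letters and not a measured site, and binding was not measured here.

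The libraries held 13039535 to 17779635 counts, with 17.9% to 27.6% of them on mitochondrial genes. In 7 of the 17 libraries (Ctrl 1, 3 and 4, Case 1, and Dapa 10, 11 and 12) the FPKM and count of the 3 genes entered over 2 lines did not match, and what set these libraries apart is not given, so values within and outside them are given beside the called members and some other genes. The lists of markers for kidney cells were all present, with no gene of the tubule, podocyte or endothelial lists under a mean of 0.1 FPKM. Markers of several segments differed between db/db and Ctrl mice at an adjusted p under 0.05 in edgeR, where 6.91% of all genes were lower and 6.09% higher in Case, and 14.9% lower and 14.2% higher in Dapa. Of 6 markers of the late proximal tubule, 5 were lower in Case and 5 in Dapa than in Ctrl mice, and their summed FPKM was 226 to 537 in Ctrl, 27.7 to 99.3 in Case and 21.9 to 146 in Dapa mice. Of 12 markers of the early proximal tubule, 2 were lower in Case and 6 in Dapa mice, with sums of 3630 to 4002, 2278 to 4568 and 2705 to 4334. Of 5 markers of the distal convoluted tubule, 3 and 4 were higher, with sums of 224 to 298, 301 to 517 and 415 to 500. Markers of other cells were higher in part: 2 and 3 of 5 for principal cells, 2 and 4 of 5 for intercalated cells (sums of 61.0 to 75.7, 76.1 to 94.7 and 90.9 to 133), 2 and 2 of 5 for podocytes, and 0 and 2 of 5 for fibroblasts and pericytes. Egf of the thick ascending limb and Jchain of plasma cells were lower in Case mice. Lcn2 of the injured tubule and Hsd3b1 of the adrenal gland were higher in both db/db groups. The adrenal list summed to 0.173 to 0.609, 0.704 to 1.93 and 0.613 to 7.67 FPKM. The adipocyte list summed to 66.9 FPKM in Ctrl 3 and to no more than 9.95 in any other mouse. All 5 erythrocyte genes were higher in both db/db groups, with sums of 18.2 to 69.6, 56.7 to 436 and 110 to 358. In bulk tissue, fewer cells of a type and less RNA per cell cannot be told apart, and the part of these shifts in the results below was not tested.

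**Figure D1:**
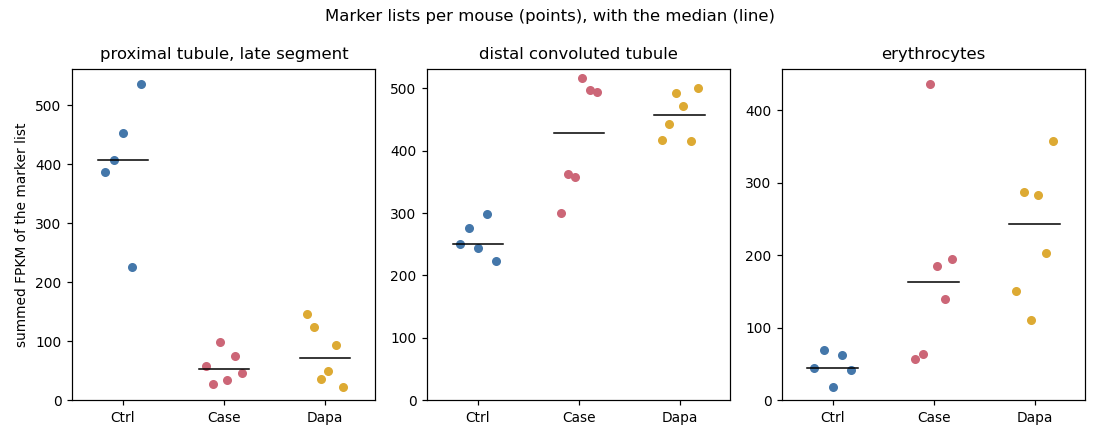
Summed FPKM (vertical axis) of the marker lists of the late proximal tubule, the distal convoluted tubule and erythrocytes in each mouse, with a line at the median of each group. The medians of the late proximal tubule list were 407 in Ctrl, 52.3 in Case and 71.8 in Dapa mice.

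The scaffold Pdzk1 and the receptors Pth1r and Vdr were lower in Case and in Dapa than in Ctrl kidneys, Kl and Slc34a1 were lower and Fgfr1 was higher in Dapa than in Ctrl kidneys, and no member was called between Dapa and Case kidneys. A gene was called at a q, the p-value of edgeR's quasi-likelihood test adjusted by Benjamini-Hochberg over all genes tested, under 0.05. Between Case and Ctrl mice 3 of the 10 members were called, all lower, against 13.0% of all 14582 genes tested, of which 6.91% were lower and 6.09% higher. In Dapa against Ctrl, 6 of 10 were called, 5 lower and 1 higher, against 29.1% of 14647 genes, of which 14.9% were lower and 14.2% higher. Between Dapa and Case mice no member was called, against 0.0% of 14573 genes. All 10 members passed the filter on low counts in each comparison, and no member passed a fold of 2 between group means, which 3.79% and 7.18% of genes did together with a q under 0.05 in the comparisons of Case and Dapa with Ctrl. The median log2 fold change of the members was -0.35 in Case against Ctrl and -0.35 in Dapa against Ctrl, beside 0.03 and 0.02 over all genes. The list of early proximal tubule markers had medians of -0.33 and -0.39, so a shift of this size was not particular to the members. The comparisons of Case and of Dapa with Ctrl share their Ctrl mice. Overlap of the groups is described below for named genes only. The share of all genes without overlap was not counted, so whether such a gene is unusual is not known. Lrp2, Slc22a12 and Calb1, named genes outside the members, lay apart from Ctrl in both db/db groups, as did Pth1r.

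The levels of the members spanned a wide range, and FPKM, which is per length of transcript, is the scale on which they can be set side by side. In Ctrl mice Slc34a1 stood highest at 1388 ± 61.8 FPKM (SD, n = 5), followed by Pdzk1 at 193 ± 26.1, Slc9a3r1 at 120 ± 6.46, Pth1r at 102 ± 7.21 and Kl at 82.5 ± 9.39. Below them stood Vdr at 43.9 ± 4.22, Slc34a3 at 13.1 ± 1.51, Slc20a2 at 11.6 ± 0.884, Slc20a1 at 4.17 ± 1.08 and Fgfr1 at 2.26 ± 0.228. Only the neighbours Slc34a3 and Slc20a2 overlapped in their ranges over the Ctrl mice. Slc34a1 made up 98.0% of the summed FPKM of the 4 transporters in Ctrl, 97.8% in Case and 97.6% in Dapa mice. These levels rested on at least 279 counts per mouse for every member.

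**Figure D2:**
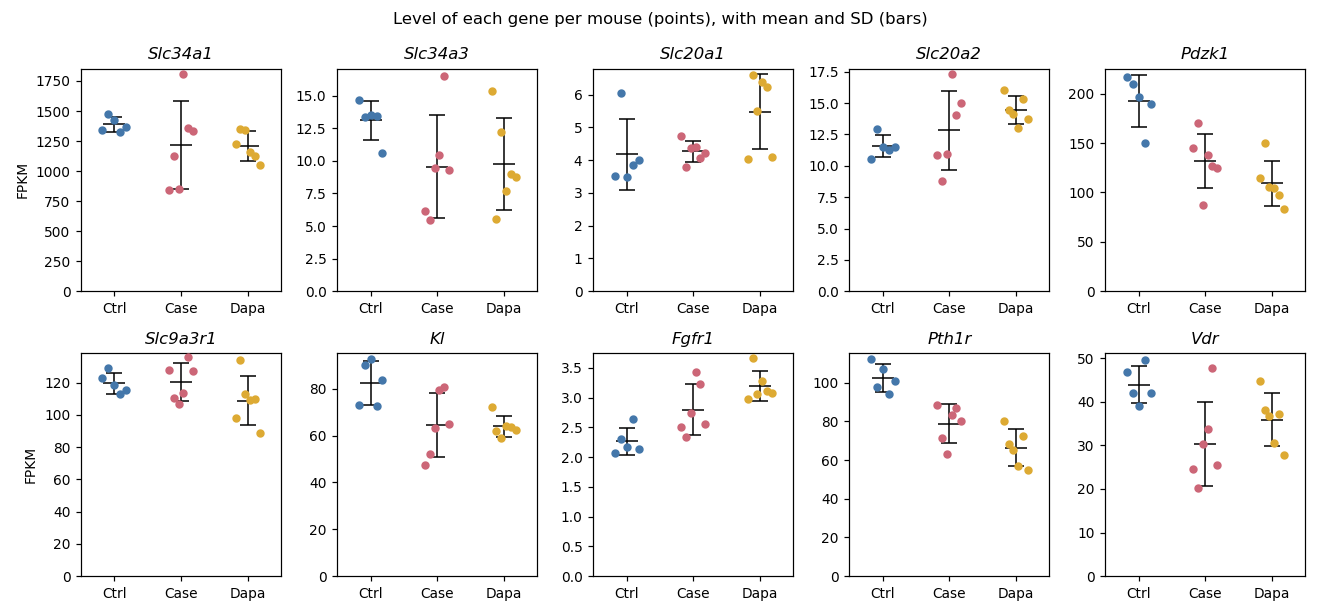
FPKM (vertical axis, from 0) of the 10 genes in each mouse of the Ctrl, Case and Dapa groups, with the mean and the SD as bars. Pth1r in all 6 Case mice and all 6 Dapa mice lay under the lowest Ctrl mouse, while Slc34a1 spread from 839 to 1805 FPKM in Case mice.

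Slc34a1, the main transporter, was lower in Dapa than in Ctrl mice by a small margin, and most varied in untreated db/db mice. The Ctrl mice stood at 1345, 1476, 1424, 1324 and 1371 FPKM. The Case mice ranged from 839 over a median of 1231 to 1805, and the Dapa mice from 1047 over 1189 to 1354. In Case mice 3 values lay under and 1 above every Ctrl value, and 4 of 6 Dapa values lay under every Ctrl value. The coefficient of variation was 4.46% in Ctrl, 30.0% in Case and 10.2% in Dapa mice. The log2 fold change was -0.26 ± 0.19 (SE) in Case against Ctrl (edgeR q = 0.405) and -0.31 ± 0.10 in Dapa against Ctrl (edgeR q = 0.0367). The call in Dapa against Ctrl was lost, at q from 0.0529 to 0.187, under 7 of 11 other settings and when any 1 of 8 mice was left out (Ctrl 1, 2, 3 and 5, and Dapa 7, 10, 11 and 12). Within the 7 libraries the difference was -0.45 on the log2 CPM scale (3 against 3 mice), and outside them -0.21 (3 against 2). Dapa and Case mice differed by -0.04 ± 0.19 (edgeR q = 0.948).

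The levels of Slc34a1 in db/db mice were correlated with the summed markers of both the early proximal and the distal convoluted tubule. Case 3 held the lowest early proximal sum of its group, 2278 FPKM, and 848.5 FPKM of Slc34a1, and Case 4 the highest of both, 4568 and 1805. Case 1 had the lowest level of Slc34a1, 839 FPKM, at a marker sum of 3245. Over the 12 db/db mice Pearson's r on the log2 scale was 0.85 and Spearman's rho 0.895 with the early proximal markers, and 0.78 and 0.678 with the distal convoluted tubule markers, as a description of values from the same libraries. Among Case mice Slc34a1 was lowest in Case 1, 2 and 3, whose injured tubule sums were 10.25, 6.23 and 22.6 FPKM. The other Case mice had sums of 2.40 to 2.57. Dapa 8 went the other way, with the highest Slc34a1 and the highest injured tubule sum of its group, 13.5 FPKM. A link was not tested. The genes whose levels over all 17 mice most resembled Slc34a1, among 11448 genes with a mean of at least 1 FPKM, were Slc28a1 (r = 0.90), a nucleoside transporter, Tmem174 (0.89) and Osbpl6 (0.89). Within the 5 Ctrl mice alone these were -0.67, 0.04 and 0.87.

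Slc34a3, the second transporter of the brush border, had lower means in db/db kidneys that did not pass the test. Ctrl levels were 14.7, 13.4, 13.5, 13.4 and 10.6 FPKM. The Case mice ran from 5.45 over 9.38 to 16.5 and the Dapa mice from 5.52 over 8.86 to 15.3. Of the 6 Case mice 5 lay under every Ctrl mouse and Case 5 lay above all of them. The log2 fold change was -0.54 ± 0.24 in Case against Ctrl (edgeR q = 0.154) and -0.53 ± 0.21 in Dapa against Ctrl (edgeR q = 0.0766), and it was 0.01 ± 0.28 in Dapa against Case (edgeR q = 0.989). The gene was called in Case against Ctrl without Case 5 and in Dapa against Ctrl without Dapa 7. The ratio of Slc34a1 to Slc34a3 was 107 ± 14.3 in Ctrl, 139 ± 47.9 in Case and 138 ± 57.1 in Dapa mice, with overlapping ranges.

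Slc20a1 and Slc20a2, the type III transporters that most cells carry, had their highest means in Dapa mice. Slc20a2 stood at 10.5, 13.0, 11.5, 11.3 and 11.5 FPKM in Ctrl mice. It ran from 8.81 over 12.5 to 17.3 in Case and from 13.0 over 14.3 to 16.0 in Dapa mice. Every Dapa value lay above every Ctrl value, yet the log2 fold change of 0.22 ± 0.08 had an edgeR q of 0.0517. DESeq2 (q = 0.0274) and 6 other settings of 11 called it, as did edgeR without Ctrl 2, Dapa 10 or Dapa 12. Smim19, whose exons share 1.53% of the exon bases of Slc20a2 on the other strand, had a mean of 11.7 FPKM in Ctrl and 10.8 in Dapa mice.

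Slc20a1 stood at 3.51, 6.06, 3.47, 3.84 and 3.99 FPKM in Ctrl mice, from 3.80 over 4.29 to 4.74 in Case and from 4.05 over 5.86 to 6.59 in Dapa mice. In 4 of 6 Dapa mice the level exceeded every Case value. The log2 fold change in Dapa against Case was 0.34 ± 0.13, with an unadjusted p of 0.0218 in edgeR and a q of 0.310. In Dapa against Ctrl it was 0.28 ± 0.17 (edgeR q = 0.237), and Ctrl 2, at 6.06 FPKM, lay well above the other 4 Ctrl mice. Without Ctrl 2 the gene was called in Dapa against Ctrl. For Case against Ctrl the fitted change was -0.05 while the mean FPKM was slightly higher in Case mice, on a scale that holds no TMM factor. Together the type III genes made up 1.11 ± 0.0961% of the summed FPKM of the 4 transporters in Ctrl, 1.43 ± 0.296% in Case and 1.62 ± 0.150% in Dapa mice, and the Ctrl and Dapa ranges did not overlap.

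Pdzk1, which encodes the scaffold NHERF3 that binds NaPi-IIa and organic ion transporters under the brush border, showed the largest change among the members in Dapa against Ctrl. Ctrl levels were 217, 209, 197, 150 and 190 FPKM. The Case mice ran from 87.4 over 132.8 to 170.1 and the Dapa mice from 82.9 over 105.3 to 150.1. In both db/db groups 5 of 6 mice lay under the lowest Ctrl mouse, Ctrl 4. The gene fell by 0.62 ± 0.17 on the log2 scale in Case against Ctrl (edgeR q = 0.0282) and by 0.93 ± 0.15 in Dapa against Ctrl (edgeR q = 0.00107). The change in Dapa against Case was -0.30 ± 0.17 (edgeR q = 0.455). The difference between Dapa and Ctrl mice was -1.12 log2 CPM within the 7 libraries and -0.80 outside them.

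Slc9a3r1, which encodes the related scaffold NHERF1, was not called in any comparison with all mice included. The Ctrl mice had 123, 129, 119, 113 and 115 FPKM, the Case mice 107 over 120 to 136, and the Dapa mice 89.1 over 109 to 134. Its log2 fold change was -0.07 ± 0.10 in Case against Ctrl (edgeR q = 0.688) and -0.25 ± 0.10 in Dapa against Ctrl (edgeR q = 0.0818), and without Dapa 8 it was called in the latter (edgeR q = 0.0263). The level of Pdzk1 divided by that of Slc9a3r1 was 1.61 ± 0.162 in Ctrl mice, 1.11 ± 0.256 in Case and 1.00 ± 0.115 in Dapa mice, and the Dapa range, up to 1.17, lay under the Ctrl range, from 1.33. The ratio of Slc34a1 to Pdzk1 was 7.31 ± 0.951, 9.42 ± 2.74 and 11.3 ± 1.38 in the same order, and again Dapa mice, from 9.02, did not overlap Ctrl mice, up to 8.83.

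Other proteins that these scaffolds hold were examined as a list of 15 genes. Against Ctrl, 5 were lower and 1 higher in Case mice, and in Dapa against Ctrl 7 were lower and 1 higher, with medians over the list of -0.18 and -0.28 in log2, where 13.0% and 29.1% of all genes were called. In Dapa against Case edgeR called 0 of 15, with 3 at an unadjusted p under 0.05, and DESeq2 and the exact test called 0. Slco1a1, an organic anion transporter, had a mean of 69.3 FPKM in Ctrl, 3.11 in Case and 3.80 in Dapa mice, and its log2 fold change against Ctrl was -4.56 ± 1.00 (edgeR q = 0.0127) and -4.32 ± 0.74 (edgeR q = 0.00145). Single mice carried these db/db means, Case 5 at 11.1 and Dapa 7 at 13.1 FPKM, beside medians of 1.88 and 1.37, and without them the log2 fold changes were -5.61 and -5.29. Slc22a12, the urate transporter URAT1, fell from 380 FPKM to 186 and 173, with log2 fold changes of -1.11 ± 0.17 (edgeR q = 0.00201) and -1.25 ± 0.21 (edgeR q = 0.00138). Abcc4, an efflux pump for organic anions and cyclic nucleotides, was the gene of the list that rose in both, from 8.61 FPKM to 19.7 and 19.8, by 1.12 ± 0.13 (edgeR q = 0.000459) and 1.10 ± 0.10 (edgeR q = 8.68e-05).

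**Figure D3:**
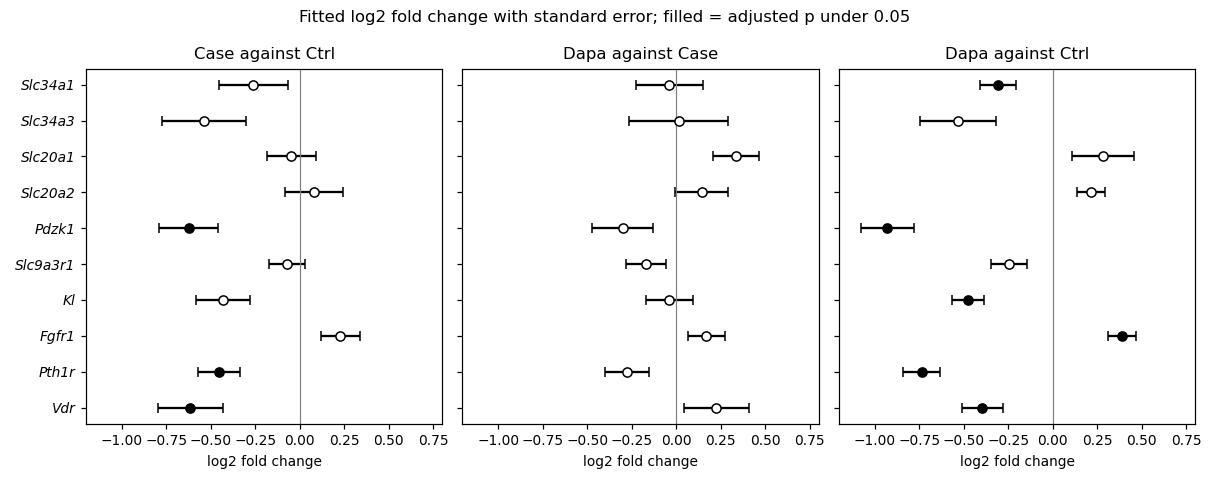
Log2 fold change (horizontal axis) with its standard error for the 10 genes in the 3 comparisons, from edgeR, with filled points where the adjusted p was under 0.05. In Dapa against Ctrl, Pdzk1 at -0.93 and Pth1r at -0.74 lay farthest from 0, and in Dapa against Case no point was filled.

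Kl, which encodes the co-receptor Klotho, was lower in Dapa than in Ctrl mice. Single Ctrl mice stood at 73.0, 90.1, 92.8, 72.7 and 83.8 FPKM, the Case mice 47.5 over 64.1 to 80.6, and the Dapa mice 58.9 over 63.2 to 72.4. The highest Dapa mouse, at 72.35 FPKM, lay just under the lowest Ctrl mouse, at 72.7, so these groups did not overlap. In Case mice 4 of 6 lay under every Ctrl mouse. The gene fell by 0.48 ± 0.09 in log2 in Dapa against Ctrl (edgeR q = 0.00283). The change in Case against Ctrl was -0.43 ± 0.15 (edgeR q = 0.0770), which DESeq2 called (q = 0.0318), as did the fit of all 3 groups at once (edgeR q = 0.0285). Between Dapa and Case mice it was -0.04 ± 0.13 (edgeR q = 0.923). Within the 7 libraries Dapa and Ctrl mice differed by -0.46 log2 CPM and outside them by -0.52. The genes most like Kl over the 17 mice were Tulp3 (r = 0.93), Pdp2 (0.91) and Sema4d (0.89).

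Fgfr1, the receptor with which Klotho is best known to bind FGF23, moved the other way. The Ctrl mice had 2.06, 2.31, 2.17, 2.64 and 2.14 FPKM, the Case mice 2.33 over 2.65 to 3.43 and the Dapa mice 2.97 over 3.10 to 3.66. All 6 Dapa mice lay above every Ctrl mouse, and 3 of 6 Case mice did. The gene was higher by 0.39 ± 0.08 in log2 in Dapa against Ctrl (edgeR q = 0.00373), and the change was 0.23 ± 0.11 in Case against Ctrl (edgeR q = 0.189) and 0.17 ± 0.10 in Dapa against Case (edgeR q = 0.486). Dapa and Ctrl mice differed by 0.32 log2 CPM within the 7 libraries and by 0.45 outside them. Over the 12 db/db mice Fgfr1 had r = 0.63 with the summed distal convoluted tubule markers. Kl and Slc20a2 had r = 0.71 each and Slc34a1 0.78, and the other members ran from -0.24 (Pdzk1) to 0.48 (Slc34a3). The ratio of Kl to Fgfr1 was 36.8 ± 5.77 in Ctrl, 23.0 ± 2.29 in Case and 20.1 ± 2.42 in Dapa mice. The lowest Ctrl ratio, 27.5, exceeded the highest of Case, 25.4, and of Dapa mice, 24.4.

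The other genes of FGF23 and Klotho signalling were a list of 18, of which Fgf23 was not analysed here. Of 14 tested in Case against Ctrl 1 was higher and 2 were lower, and in Dapa against Ctrl 3 of 15 were higher and 1 was lower, beside 13.0% and 29.1% of all genes called in either direction, so the count in Dapa against Ctrl was no more than the background. In Dapa against Case edgeR, DESeq2 and the exact test called 0, with 3 at an unadjusted p under 0.05 in edgeR. Fgfr4, another receptor that can pair with Klotho, had a mean of 14.3 FPKM in Ctrl, 10.4 in Case and 12.6 in Dapa mice. It fell by 0.54 ± 0.13 in log2 in Case against Ctrl (edgeR q = 0.0194, and 0.0555 without Ctrl 3), and its change in Dapa against Ctrl was -0.29 ± 0.11 (edgeR q = 0.0583), called with the term for the 7 libraries (edgeR q = 0.0292) and without Ctrl 4 or Dapa 7. Fgfr2 was higher in Dapa than in Ctrl mice by 0.83 ± 0.17 (edgeR q = 0.00344), with 1.03 FPKM in Ctrl and 1.97 in Dapa mice. Klb, the sister co-receptor, had at most 13 counts in any mouse and was not tested.

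The downstream genes of the receptors in this list did not all move alike. Dusp6, named after its value was seen, was called lower in Case than in Ctrl mice. Spry2, Spry4 and Etv5 were called in neither comparison with Ctrl. Egr1, an immediate early gene of the MAPK pathway, stood at 0.502 FPKM in Ctrl, 2.83 in Case and 2.78 in Dapa mice. It rose by 2.40 ± 0.58 in log2 in Case (edgeR q = 0.0182) and by 2.36 ± 0.35 in Dapa against Ctrl (edgeR q = 0.000689). The call in Case against Ctrl was lost without Ctrl 3 (edgeR q = 0.053), with the term for the 7 libraries (edgeR q = 0.115) and with limma on log2(FPKM + 1) (q = 0.0564), and the difference was 0.44 log2 CPM within these libraries and 1.90 outside them. Etv4 rose by 2.43 ± 0.47 in Dapa against Ctrl (edgeR q = 0.00284) from a mean of 0.0425 FPKM, which was at most 7 counts in a Ctrl mouse. It passed the filter on low counts only through the Dapa mice, with 6 to 34 counts, so a call could only be a rise. In Case against Ctrl it was not tested.

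Pth1r, the receptor through which parathyroid hormone acts on the tubule, was the member whose Ctrl values lay apart from those of both db/db groups. The Ctrl mice had 112, 97.9, 107, 94.2 and 101 FPKM. The Case mice ran from 63.0 over 81.8 to 88.7 and the Dapa mice from 55.0 over 66.8 to 80.3. All 12 db/db mice lay under the lowest Ctrl mouse. The gene fell by 0.45 ± 0.12 in log2 in Case against Ctrl (edgeR q = 0.0252) and by 0.74 ± 0.11 in Dapa against Ctrl (edgeR q = 0.000596). In Dapa against Case the change was -0.28 ± 0.12, with an unadjusted p of 0.0401 in edgeR and a q of 0.367, and 2 of 6 Dapa mice lay under every Case mouse. Within the 7 libraries the difference between Dapa and Ctrl mice was -0.92 log2 CPM, and outside them -0.57. Of the 15 genes listed for parathyroid hormone signalling (G proteins, adenylyl cyclases, protein kinase A and arrestins among them) 13 were tested, and edgeR called 0 in each of the 3 comparisons, with 1 at an unadjusted p under 0.05 in Case against Ctrl, 1 in Dapa against Case and 2 in Dapa against Ctrl. Over all genes 13.0%, 0.0% and 29.1% were called and 28.7%, 12.9% and 41.1% had such a p in the same order. DESeq2 called 1 in Case against Ctrl, Plcb1, and 1 in Dapa against Ctrl, Prkar1a, which were named after their values were seen.

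Across the 12 db/db mice Pdzk1 and Pth1r went with the erythrocyte genes in the opposite sense, with r = -0.67 and -0.60 on the log2 scale, where Slc34a1 had r = 0.02. With the early proximal tubule markers they had r = 0.65 and 0.50. Over all 17 mice Pdzk1 and Pth1r had r = 0.84 with each other, the closest pair among the members.

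Vdr, the vitamin D receptor, was lower in both db/db groups than in Ctrl mice. The Ctrl mice had 46.8, 42.0, 39.1, 49.6 and 41.9 FPKM, the Case mice 20.2 over 27.8 to 47.7 and the Dapa mice 27.9 over 37.1 to 44.8. In each db/db group 5 of 6 mice lay under every Ctrl mouse, and the exceptions were Case 5 and Dapa 7. The gene fell by 0.61 ± 0.18 in log2 in Case against Ctrl (edgeR q = 0.0429) and by 0.40 ± 0.12 in Dapa against Ctrl (edgeR q = 0.0223), and the change in Dapa against Case was 0.23 ± 0.18 (edgeR q = 0.617). The difference between Dapa and Ctrl mice was -0.65 log2 CPM within the 7 libraries and -0.16 outside them. The call in Dapa against Ctrl was lost without Ctrl 1 (edgeR q = 0.0676) or Dapa 10 (edgeR q = 0.051), in the fit of all 3 groups (edgeR q = 0.0886) and with limma (q = 0.0648 and 0.0638). The genes most like Vdr over the 17 mice were Htra1 (r = 0.91), Tcn2 (0.91) and Myl6b (0.90). Within the 5 Ctrl mice alone these were -0.27, -0.03 and 0.36.

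Single mice stood high or low for several members at once. Dapa 7 was the highest of its group for 5 members, Slc34a3, Slc20a2, Kl, Pth1r and Vdr, and the lowest for Slc20a1 and Fgfr1. Dapa 8 was the highest for the other 5, Slc34a1, Slc20a1, Fgfr1, Pdzk1 and Slc9a3r1. Case 5 was the highest of its group for Slc34a3, Kl, Slc9a3r1 and Vdr, and Ctrl 2 for Slc34a1, Slc20a1, Slc20a2 and Slc9a3r1. The highest sums of late proximal tubule markers were 146 FPKM in Dapa 7 among Dapa mice and 99.3 FPKM in Case 3 among Case mice, and Case 3 was the highest of its group for no member. At the low end, Dapa 12 was the lowest of its group for 5 members (Slc34a1, Pdzk1, Slc9a3r1, Pth1r and Vdr) and had its lowest early and late proximal sums, 2705 and 21.9 FPKM. Ctrl 4 was the lowest for Slc34a1, Kl, Pdzk1, Slc9a3r1 and Pth1r, and Case 2 for Slc34a3, Slc20a1, Slc20a2, Fgfr1 and Vdr. Over the 12 db/db mice Vdr had r = 0.60 with the summed late proximal tubule markers, the highest value of a member with this list.

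The calls in Case against Ctrl hung on single mice, and that of Vdr was lost when any 1 mouse other than Case 5 was left out and with limma at both pseudocounts (q = 0.053 and 0.0513). No member (0 of 10) was called without Ctrl 1, without Ctrl 3, or once the fit held a term for those 7 libraries, and without Case 5 the count was 5, with Kl and Slc34a3 beside Pdzk1, Pth1r and Vdr. Without Ctrl 2 and without Ctrl 5 only Pth1r, and without Case 2 only Pdzk1, were called. The fitted changes themselves moved less: without any 1 mouse, Pth1r stayed between -0.39 and -0.50 in log2 and Pdzk1 between -0.53 and -0.71. Outside the 7 libraries (5 Case against 2 Ctrl mice) the differences were -0.75 for Pdzk1, -0.47 for Pth1r and -0.57 for Vdr in log2 CPM, and within them (1 against 3) they were -0.46, -0.33 and -0.98. In Dapa against Ctrl, Kl, Fgfr1, Pdzk1 and Pth1r were called under every setting tried and without any 1 mouse.

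Vitamin D metabolism and its calcium targets, a list of 17 genes, held more genes called higher than lower. Of 17 tested in Case against Ctrl 6 were higher and 1 lower, and in Dapa against Ctrl 9 of 16 were higher and 2 lower, with medians of 0.75 and 0.69 in log2. Over all genes 6.09% and 14.2% were higher and 6.91% and 14.9% lower. In Dapa against Case edgeR called 0 of 16, with 2 at an unadjusted p under 0.05, and DESeq2 and the exact test called 0.

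Cyp27b1, the enzyme that makes active vitamin D, had 7.54, 4.00, 5.02, 3.98 and 4.05 FPKM in Ctrl mice. It ran from 4.49 over 9.36 to 33.3 in Case and from 17.6 over 42.8 to 54.8 in Dapa mice. Every Dapa mouse lay above every Ctrl mouse, and the Case mice were split, with 33.0 and 33.3 FPKM in Case 1 and Case 4 and at most 11.6 in the other 4. The gene rose by 2.87 ± 0.35 in log2 in Dapa against Ctrl (edgeR q = 0.000289). The change was 1.63 ± 0.52 in Case against Ctrl (edgeR q = 0.0552), which was called by DESeq2 (q = 0.0318), the exact test of edgeR (q = 0.0148), upper quartile scaling (q = 0.0499), the fit of all 3 groups (q = 0.0394), the term for the 7 libraries (q = 0.0392), and without Case 3 or Case 5. The change was 1.24 ± 0.51 in Dapa against Case, with an unadjusted p of 0.0278 in edgeR and a q of 0.334, and the difference was -0.13 log2 CPM within the 7 libraries (3 against 1) and 2.01 outside them. Cyp24a1, the degrading enzyme, had a mean of 10.6 ± 6.23 FPKM in Ctrl, 22.1 ± 16.4 in Case and 43.4 ± 24.6 in Dapa mice, and rose by 1.95 ± 0.46 in Dapa against Ctrl (edgeR q = 0.00809). Case 2 had 0.373 FPKM, or 20 counts, against at least 8.36 FPKM in the other Case mice.

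The 4 calcium transport genes given here, named after their values were seen, were higher in both db/db groups. Calb1, the calcium buffer calbindin of the distal tubule, rose from 48.3 FPKM in Ctrl to 147 in Case (log2 1.55 ± 0.27, edgeR q = 0.00348) and 160 in Dapa mice (1.62 ± 0.19, edgeR q = 0.000205). S100g, a second calbindin, rose from 315 FPKM to 1040 (log2 1.65 ± 0.29, edgeR q = 0.00390) and 632 (0.90 ± 0.16, edgeR q = 0.00215). The calcium channel Trpv5 and the sodium-calcium exchanger Slc8a1 rose as well, by 0.75 and 0.95 in Case and by 0.67 and 1.15 in Dapa mice. With the term for the 7 libraries neither was called in Case against Ctrl (edgeR q = 0.148 and 0.102). Within these libraries (1 Case against 3 Ctrl mice) they differed by -0.04 and 0.04 log2 CPM and outside them by 0.79 and 1.08. Trpv5 was also not called in Case against Ctrl without Ctrl 1, 3 or 5 or Case 4. Calb1 and Trpv5 stand also in the list of distal convoluted tubule markers.

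Genes that carry vitamin D in blood and bring it into the tubule moved apart. Gc, the vitamin D binding protein that is known mainly from liver, rose from 5.79 FPKM in Ctrl to 76.7 in Case (log2 3.66 ± 0.57, edgeR q = 0.00201) and 49.7 in Dapa mice (3.00 ± 0.37, edgeR q = 0.000303). Case 1 stood at 217 FPKM and the other Case mice at no more than 80.6, so the Case mean rested in part on this mouse, and the medians were 55.9 in Case and 35.7 in Dapa mice. Lrp2, the endocytic receptor megalin that takes up the binding protein, and named after its values were seen, fell from 164 FPKM to 87.5 (log2 -0.98 ± 0.17, edgeR q = 0.00407) and 74.3 (-1.25 ± 0.18, edgeR q = 0.000557). Lrp2 stands also in the list of early proximal tubule markers. So does Cubn, named after its value was seen, the other vitamin D list gene called lower in Dapa than in Ctrl mice. Rxrg, a partner receptor of VDR, rose by 2.63 ± 0.64 (edgeR q = 0.0193) and 2.24 ± 0.66 (edgeR q = 0.0232) from at most 11 counts in a Ctrl mouse. It passed the filter on low counts through the db/db mice, so a call could only be a rise. Their counts were 12 to 30 in Case and 10 to 22 in Dapa mice. Neither call of Rxrg held without Ctrl 1 (edgeR q = 0.053 and 0.0569).

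**Figure D4:**
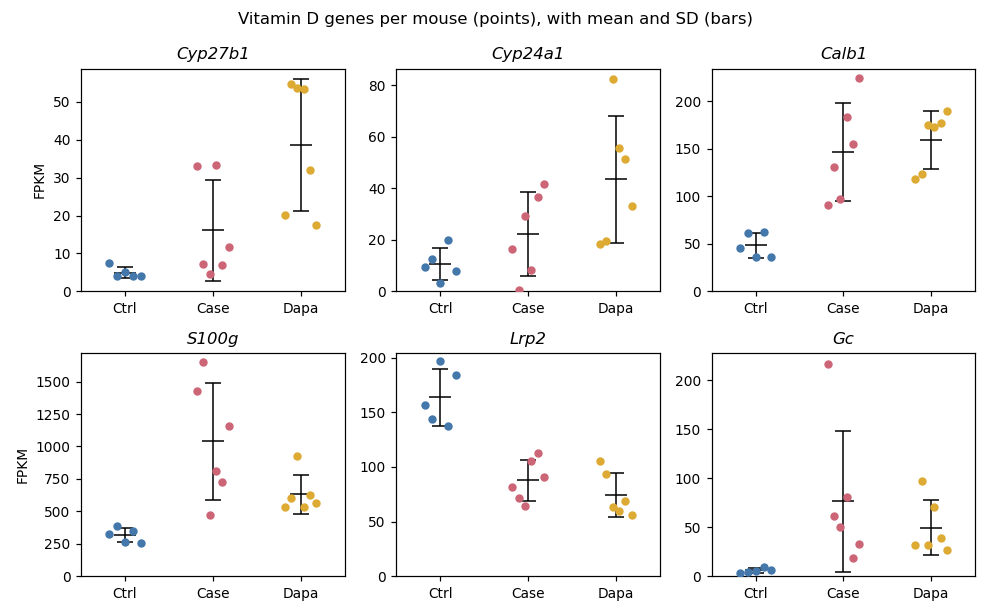
FPKM (vertical axis, from 0) of 6 vitamin D genes in each mouse of the 3 groups, with the mean and the SD as bars. For Cyp27b1 all 6 Dapa mice, from 17.6 FPKM, lay above all 5 Ctrl mice, up to 7.54 FPKM.

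The remaining genes of phosphate transport and metabolism were a list of 16. Of 15 tested in Case against Ctrl 2 were higher and 4 lower, in Dapa against Ctrl 2 of 15 were higher and 5 lower, beside 13.0% and 29.1% of all genes called, and 0 were called in Dapa against Case by edgeR, where 1 had an unadjusted p under 0.05, and by DESeq2 and the exact test. Slc17a3 and Slc17a4, which belong to the type I transporter family and are now known mainly for urate and organic anions, were lower in both. Slc17a3 fell from 80.0 FPKM in Ctrl to 26.4 in Case (log2 -1.68 ± 0.21, edgeR q = 0.000673) and 28.8 in Dapa mice (-1.59 ± 0.18, edgeR q = 0.00023). Slc17a4 fell from 1.19 FPKM to 0.572 and 0.535, with log2 fold changes of -1.13 ± 0.31 (edgeR q = 0.0309) and -1.27 ± 0.30 (edgeR q = 0.00751). Its call in Case against Ctrl was lost without Ctrl 1, 2, 3 or 5, without Case 3 or 4, and with the term for the 7 libraries (edgeR q from 0.052 to 0.0884). Slc34a2, the transporter of the type II family known from lung and gut, had means of 0.795, 1.56 and 2.05 FPKM and rose by 1.26 ± 0.27 in Dapa against Ctrl (edgeR q = 0.00512). Xpr1, the phosphate exporter, named after its values were seen, fell by 0.58 ± 0.11 in Dapa against Ctrl (edgeR q = 0.00258), from 7.45 to 5.36 FPKM.

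Slc5a2, the target of dapagliflozin, which shares the early proximal tubule with Slc34a1, was not called in any comparison. Its mean was 62.1 ± 6.04 FPKM in Ctrl, 53.7 ± 21.2 in Case and 65.4 ± 12.7 in Dapa mice, and its log2 fold change in Dapa against Case was 0.26 ± 0.24 (edgeR q = 0.676).

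In Dapa against Case, the comparison for the drug, the 10 members ranged from -0.30 to 0.34 in log2, with SE of 0.10 to 0.28. The median over them was -0.01, beside -0.01 over all genes, and 5 of 10 were positive. Slc20a1 and Pth1r were the 2 members with an unadjusted p under 0.05, beside 12.9% of all genes, and the smallest q over all genes was 0.173. DESeq2 and the exact test of edgeR called none of the 10 either. The 7 libraries were unevenly spread, with 3 of Dapa and 1 of Case mice. Within them the members differed by -0.66 (Pdzk1) to 0.42 (Slc34a3) log2 CPM. Outside them (3 against 5 mice) the differences ran from -0.10 (Pth1r) to 0.40 (Vdr). A q above the threshold does not show that the groups were alike.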

How the data were processed

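RNA-seq of whole kidney was taken from 5 Ctrl, 6 Case and 6 Dapa mice, grouped by the sample labels, with 1 library per mouse. Per the study's methods, reads from strand-specific libraries were aligned to mm10 with HISAT2 and counted with Stringtie. The authors deposited read counts per gene, and the authors deposited FPKM values beside them. Dividing each count by its library total and by gene length gave the FPKM back within 0.00333%, which leaves no room for a TMM factor. Of 22561 genes, 3 (Sirt1, Tgfb1 and Bmp4) were entered over 2 lines and left out. Libraries held 13039535 to 17779635 counts, and a gene with few counts has a large counting error. No 2 libraries of a group agreed within sampling noise (lowest chi-square per gene 15).

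The counts went into edgeR 4.0.16 under R 4.3.3, with TMM scaling, low genes removed by filterByExpr and the quasi-likelihood test. Each comparison was fitted on its own 2 groups, q is the p-value after Benjamini-Hochberg adjustment over all genes, and a gene was called at a q under 0.05. The study's rule adds a fold above 2 between mean FPKM. Alternatives used DESeq2 1.42.0, limma 3.58.1 on log2(FPKM + 1) or log2(FPKM + 0.1), other scalings, filters (none, or at least 10 counts in every sample), a term for 7 libraries, and each mouse left out. The test was checked on simulated counts. Positions, exon overlaps and shared 50-base stretches came from GENCODE M21, which uses the same build, and the 250 bases before the start from RefSeq. Values per mouse were taken in Python 3.11.15 with pandas 2.3.3, and figures drawn with matplotlib 3.10.9.

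The members, the lists and the tests were chosen with earlier results of these data known. Named genes were the 10 members, Fgf23, Cyp27b1, Cyp24a1, Fgfr4, Klb and Slc5a2, up to 3 genes per list with the largest log2 fold change among those called in any comparison, and the 3 genes most like Slc34a1, Kl and Vdr by Pearson's r of log2(FPKM + 1).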

Additional observations from a re-analysis of the deposited data

Results flagged for a closer look

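Among 26 named genes in 3 groups, 78 sets of values, 11 held a mouse that stood far from the others of its group by Dixon's criterion at the 95% level, where chance gives about 1 in 20. Of the members, Slc20a1 was high in Ctrl 2 (6.06 FPKM), and Kl was high in Dapa 7 (72.35 FPKM). Ctrl 2 was also high for Slc5a2 (72.77 FPKM). Dapa 7 was also high for Slco1a1 (13.13 FPKM). Case 5 was high for Slco1a1 (11.07 FPKM) and for Slc17a3 (42.56 FPKM). Slc17a3 was low in Ctrl 4 (52.64 FPKM), the Ctrl mouse with the lowest sum of late proximal tubule markers, 226 FPKM. Gc was high in Case 1 (216.9 FPKM) and Egr1 in Dapa 12 (5.476 FPKM). Klb, near 0 in all mice, was highest in Ctrl 3 (0.1096 FPKM, 13 counts) and in Case 2 (0.009399 FPKM, 1 count).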

How the results depend on the processing

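In Case against Ctrl, 3 members and 1895 genes were called. A term for the 7 libraries left 0 members and 1219 genes. Leaving out 1 mouse gave 0 to 5 members and 1002 to 2154 genes, with 1160, 1150, 1002 and 1125 genes without Ctrl 1, 2, 3 or 5. The labels number Ctrl and Case mice alike, but these are different mice, and deviations of same-numbered mice had correlations of -0.0676 to -0.0432, so the numbers do not pair them. A fit with the replicate block called 0 members and 699 genes, and no Ctrl mouse was most like the Case mouse with its own number. The numbers of the Dapa mice are shared with no other group, so no block could be fitted there. In Dapa against Case, where 0 genes were called, DESeq2 called 202, the exact test of edgeR 125 and the fit of all 3 groups 5, none of them a member, and leaving out 1 mouse gave 0 to 7 genes (7 without Dapa 7). In Dapa against Ctrl the counts of 6 members and 4260 genes stayed within 1.5 times under every alternative, with 4 to 7 members without 1 mouse.

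Direction and side of the threshold were kept by 193 of 230 alternative values of members when Case mice were set against Ctrl, by 214 of 230 for Dapa with Case and by 187 of 220 for Dapa with Ctrl. The other named genes kept them in 397 of 435, 92 of 92 and 489 of 499 values. Signs turned only for changes near 0 that no setting called in that comparison. In Case against Ctrl, limma gave 0.0448 and 0.0585 for Slc20a1 and 0.00283 and 0.00282 for Slc9a3r1 with the larger and smaller pseudocount, and Slc20a2 was -0.00665 with the term for the 7 libraries and -0.0337 with the block. Without 1 mouse Slc20a1 lay between -0.105 and 0.127 and Slc20a2 between -0.0214 and 0.172. In Dapa against Case, limma gave 0.0343 and 0.0343 for Slc34a1 and 0.00822 and 0.00869 for Kl, and the term gave 0.102 and 0.0408. Without 1 mouse Slc34a1 lay between -0.131 and 0.104, Kl between -0.109 and 0.0352 and Slc34a3 between -0.158 and 0.240. In Dapa against Ctrl Slc5a2 turned to 0.0173 with upper quartile scaling, 0.0571 and 0.0577 with limma, and lay between -0.123 and 0.0507 without 1 mouse. The cause of these changes was not tested. With 5 to 6 mice per group, the median standard error was 0.15 to 0.159 in log2, and a change below it cannot be resolved. Larger changes can stay unresolved too: in Case against Ctrl, -0.43 ± 0.15 for Kl and -0.54 ± 0.24 for Slc34a3 were not called.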
